A study of Mus musculus with 11 samples.

Results

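The genes described here encode the folding machinery of the endoplasmic reticulum (ER) and the unfolded protein response (UPR), the signalling program that adjusts that machinery. They are a list of 38 genes chosen by function, with earlier results of these data known. Probes of an Agilent mouse array were assigned to them through the RefSeq accession that the array carries for each probe. Of the 38 genes, 36 were represented, by 60 probes among 41174 probes on the array, whereas Dnajb11 and Pdia3 had no assigned probe. All 60 probes were well above background on all 11 arrays, so that no gene of the list entered the tests only through a group in which it was high.

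The cells were MLTC-1, an established line of mouse Leydig tumor cells (MLTCs), the testicular cell type that makes testosterone. They received 1 of 2 siRNAs against Mamld1, named siRNA1 (4 arrays) and siRNA2 (3 arrays), or the non-targeting RNA 4611G (4 control arrays), each at 20 nM with Lipofectamine RNAiMAX, and RNA was taken 48 h later. Every group therefore shared the transfection itself, and the study's methods place the harvest for arrays shortly after human chorionic gonadotropin (hCG) was added to the medium, which the sample labels do not mention. The purpose was to find transcripts that change when Mamld1, a gene implicated in fetal testosterone production, is knocked down.

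Each array hybridized Cy3-labeled cRNA from 300 ng of RNA, and a level here is the processed signal divided by the 75th percentile of that array, given as a percentage of the same probe's geometric mean over the control group. Mamld1 itself stood at 101% ± 17.1 (SD, n = 4) with control RNA, 54.0% ± 15.4 (n = 4) with siRNA1 and 59.8% ± 12.6 (n = 3) with siRNA2, and every siRNA array lay below the lowest control array (85.2%). Between 58.6% and 62.6% of the spots were well above background on each array, and no spot was saturated. The 11 probes of 8 Leydig cell markers were above background on all arrays and passed the filter for testing, whereas 0 of 8 probes of 3 macrophage markers passed it. A probe of the macrophage marker Csf1r was still well above background on 3 control, 2 siRNA1 and 1 siRNA2 arrays, and the macrophage marker Cd68 had no assigned probe. Of the other marker probes, 3 of 7 for Sertoli cells, 3 of 9 for peritubular cells and fibroblasts and 1 of 4 for germ cells passed. Nothing in the labels states that the arrays of a group came from separate cultures, so that p-values measure the spread between these arrays, which may be technical. In bulk RNA, less RNA per cell and fewer cells that express a gene cannot be told apart.

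By way of background, proteins that enter the ER are held by the Hsp70 chaperone BiP (Hspa5) and the Hsp90 chaperone GRP94 (Hsp90b1), pass through a sugar-dependent folding cycle run by calnexin (Canx) and calreticulin (Calr), and receive disulfide bonds from the protein disulfide isomerases. Proteins that fail to fold are moved back to the cytosol and degraded. When unfolded proteins accumulate, the sensors IRE1 (Ern1), PERK (Eif2ak3) and ATF6 act through the transcription factors XBP1, ATF4 and cleaved ATF6. ATF4 is also driven by amino acid shortage through GCN2 (Eif2ak4), and this wider program is called the integrated stress response. Leydig cells are rich in smooth ER, where several enzymes of steroid synthesis reside.

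Promoters of these genes are known for short elements through which ER stress acts, and these were looked up so that the genes carrying each element could be set beside each other. RefSeq promoters (build GRCm38.p6, 250 bases before and 50 after each start site) were given for 33 of the 38 genes, as 35 promoters. The ER stress element, ERSE (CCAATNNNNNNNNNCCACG, on either strand), was found in 8 of the 35, those of Hspa5, Hsp90b1, Calr, Canx, Creld2, Dnajc3, Pdia6 and Syvn1, against 0.119% of all 32851 promoters of the same length. ERSE-II (ATTGGNCCACG) was found in those of Herpud1 and Dnajb11, against 0.0365% of all. An ATF4 element (TGATGNAA) was found in 5 of the 35, those of Asns, Chac1, Trib3, Atf3 and Herpud1, against 3.97% of all, and a CRE (TGACGTCA) in 1, that of Ppp1r15a, against 1.79%. The XBP1 element TGACGTGG was found in 0 of the 35 and in 0.676% of all. No match of one motif overlapped that of another in these 35 promoters. A match is only a run of letters and is not evidence that a factor binds there. The following 5 stretches, the 250 bases before the start site written 5′ to 3′ in the direction of the gene, belong to genes on which the results turn, and capitals mark the matches. Hspa5 (chr2:34771840-34772089, plus strand) and Canx (chr11:50325674-50325923, minus strand) each show an ERSE. Asns (chr6:7693210-7693459, minus strand) and Chac1 (chr2:119350992-119351241, plus strand) each show an ATF4 element. Sdf2l1 (chr16:17132384-17132633, minus strand) shows no exact match of any of the 5 motifs and is given because its log2 fold change with siRNA1 was the largest in size among the 36 genes.
Hspa5: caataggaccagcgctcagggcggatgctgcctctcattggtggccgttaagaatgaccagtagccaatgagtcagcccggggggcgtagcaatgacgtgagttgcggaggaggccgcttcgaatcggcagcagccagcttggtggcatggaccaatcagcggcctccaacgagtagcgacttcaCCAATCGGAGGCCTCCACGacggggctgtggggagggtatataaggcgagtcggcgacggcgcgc
Sdf2l1: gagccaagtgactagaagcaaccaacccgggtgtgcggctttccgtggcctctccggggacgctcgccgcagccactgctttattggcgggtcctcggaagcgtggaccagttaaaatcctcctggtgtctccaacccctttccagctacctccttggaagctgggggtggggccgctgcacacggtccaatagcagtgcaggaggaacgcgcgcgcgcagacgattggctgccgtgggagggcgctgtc
Canx: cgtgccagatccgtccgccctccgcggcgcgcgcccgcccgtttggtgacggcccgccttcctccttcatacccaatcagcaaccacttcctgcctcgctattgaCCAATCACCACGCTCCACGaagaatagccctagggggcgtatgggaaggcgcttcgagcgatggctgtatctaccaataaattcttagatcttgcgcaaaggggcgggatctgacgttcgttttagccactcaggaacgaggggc
Asns: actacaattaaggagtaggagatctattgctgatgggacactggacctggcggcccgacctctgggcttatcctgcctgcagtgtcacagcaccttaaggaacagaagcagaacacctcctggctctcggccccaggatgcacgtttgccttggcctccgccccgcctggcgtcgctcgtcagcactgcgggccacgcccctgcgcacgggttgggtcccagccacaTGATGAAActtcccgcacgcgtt
Chac1: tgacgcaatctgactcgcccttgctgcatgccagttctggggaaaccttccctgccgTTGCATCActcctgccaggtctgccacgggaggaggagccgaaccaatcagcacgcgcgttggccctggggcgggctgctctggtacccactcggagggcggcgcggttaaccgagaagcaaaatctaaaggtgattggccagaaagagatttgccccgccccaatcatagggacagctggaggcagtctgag

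The shares of ER chaperone and UPR probes that were called lay near or below those of all tested probes. With siRNA1, 3 of the 60 probes were higher and 10 lower than with control RNA (limma, p adjusted over all 24250 tested probes by Benjamini and Hochberg, threshold 0.05), a share of 21.7%, whereas 27.0% of all tested probes passed, 11.8% higher and 15.2% lower. With siRNA2, 2 were higher and 9 lower, a share of 18.3%, against 18.4% of all probes, 7.70% higher and 10.7% lower. The median log2 fold change of the 60 probes was -0.0019 with siRNA1 and -0.025 with siRNA2, against -0.048 and -0.0082 over all tested probes. In the direct comparison of the siRNAs, 7 probes were higher and 6 lower with siRNA1 than with siRNA2, 21.7% of the 60 against 23.5% of all, 11.7% higher and 11.8% lower. The 2 comparisons with control share the same control arrays. In both of them 5 probes, of 5 genes, were lower and 0 were higher, whereas over all probes 4.22% were lower and 4.08% higher with both. At an unadjusted p of 0.05 or less, 6 were lower and 0 higher with both siRNAs by limma, and 6 and 2 by the methods' t-test. The share of all probes with both at this threshold was not counted. When a change of at least 2-fold was also asked for, 1 probe was left with each siRNA, Sdf2l1 with siRNA1 and Canx with siRNA2, against 2.99% and 2.25% of all probes. The split of calls moved with the scaling, among these probes and over all tested probes. With siRNA1 it was 3 higher and 5 lower under median scaling, 5 and 9 under quantile normalization and 5 and 8 after normexp background correction. Over all tested probes, 43.6% of the siRNA1 calls were higher in the main fit, and 50.9%, 51.1% and 50.2% in the same order of settings. For siRNA1 against siRNA2 the split was 6 higher and 1 lower under median scaling. Of all calls in that comparison, 49.9% were higher in the main fit and 58.1% under median scaling.

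**Figure D1:**
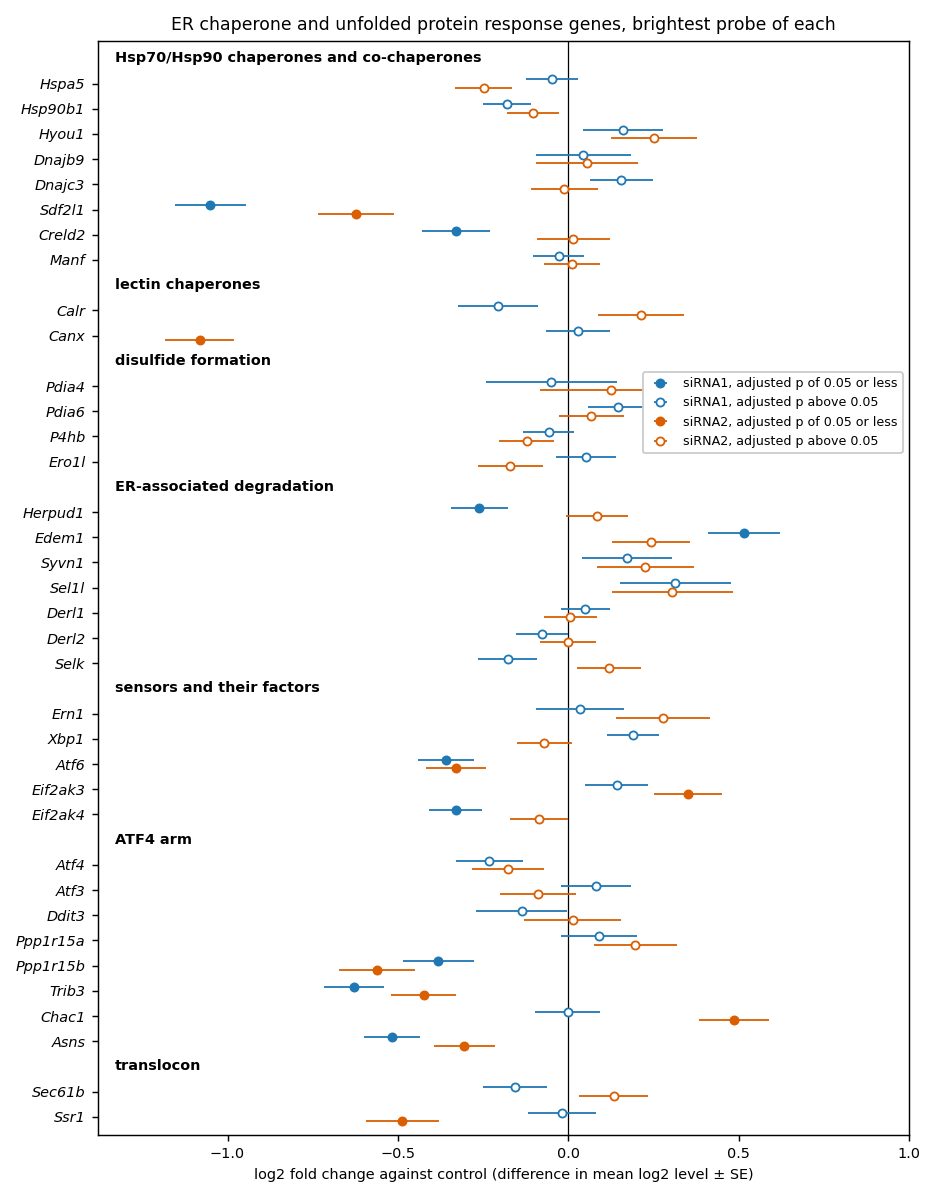
Log2 fold change of the brightest probe of each of the 36 genes with siRNA1 (blue) and siRNA2 (orange) against control, as the difference in mean log2 level with its standard error; filled points have an adjusted p of 0.05 or less. Sdf2l1, Trib3, Asns, Ppp1r15b and Atf6 are filled on the left of 0 with both siRNAs, Canx and Ssr1 only with siRNA2, and most other points are open and near 0.

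Some cell type markers differed between the groups too. Of the 11 Leydig cell marker probes, 0 were higher and 2 lower with siRNA1 (18.2% called, against 27.0% of all probes). With siRNA2, 0 were higher and 1 lower (9.09%, against 18.4% of all), and between the siRNAs 0 and 5 (45.5%, against 23.5% of all). At an unadjusted p of 0.05 or less these counts were 0 and 4, 2 and 1, and 0 and 5, by limma and by the methods' t-test alike. Cyp17a1, an enzyme of androgen synthesis, had a log2 fold change of -0.92 with siRNA1 (adjusted p = 0.000216) and -0.48 with siRNA2 (adjusted p = 0.0237), and Lhcgr, the receptor for luteinizing hormone, had -0.63 (adjusted p = 0.00285) and 0.16 (adjusted p = 0.471). Insl3, not called, had 0.31 with siRNA1 (adjusted p = 0.412) and 0.82 with siRNA2 (adjusted p = 0.0613). The median log2 fold change over the 11 probes was -0.11 with siRNA1 and 0.16 with siRNA2. Averaged over the 11 probes, the level was 89.8% to 109.8% on control, 79.9% to 101% on siRNA1 and 104% to 128% on siRNA2 arrays. Of the 3 Sertoli cell probes tested, Rhox5 was lower with siRNA1 (-0.58, adjusted p = 0.00767), and the mean over them was 91.8% to 112%, 79.9% to 96.8% and 92.3% to 104% in the same order of groups, while the Sox9 and Dmrt1 probes were not well above background on any array. One of the 3 peritubular and fibroblast probes tested, the dimmer of those tested for Acta2, was lower with siRNA1. The brighter Acta2 probe gave -0.12 with siRNA1 (adjusted p = 0.619) and was not called. Means over the 3 probes were 92.8% to 106%, 64.7% to 109% and 82.5% to 114%, and the Col1a1 probes were not well above background on any array. The germ cell marker Ddx4 had -1.72 with siRNA1 (adjusted p = 0.000197), with levels of 81.1% to 121%, 21.6% to 43.5% and 75.7% to 115%, and was well above background on only 1 of the 4 siRNA1 arrays, and Dazl and Pou5f1 probes were so on at most 1 array each. The part of these markers in the changes of chaperone and UPR genes was not tested.

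Where a gene had several probes, as 16 genes did, the brightest probe over all arrays is given first. For 20 genes the brightest probe was called by limma in none of the 3 comparisons, and their log2 fold changes lay between -0.23 and 0.31 with siRNA1 and between -0.25 and 0.31 with siRNA2. Among them were Hspa5, Hsp90b1, Atf4, Ddit3 and Atf3, the transcripts by which ER stress is usually followed. The share of all genes on the array called in none of the 3 comparisons was not counted, so whether 20 is many or few cannot be said. The genes are described below by role. For a single gene an exact permutation test of the array values cannot go below 0.0286 (two-sided; 4 against 4 or 4 against 3 arrays), so that the fit across all probes carries the calls.

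Among the chaperones of the Hsp70 and Hsp90 systems and their partners, Sdf2l1 fell with both siRNAs and Creld2 with siRNA1. Sdf2l1 is an ER-resident partner of BiP and its J-domain co-chaperones. The control arrays gave Sdf2l1 levels of 92.2, 99.6, 96.0 and 113%, the siRNA1 arrays 44.1, 51.2, 46.6 and 51.7% and the siRNA2 arrays 62.2, 58.6 and 75%. All 7 siRNA arrays lay below every control array, and the siRNA1 arrays lay below every siRNA2 array. In log2 fold change this was -1.05 ± 0.10 (SE) with siRNA1 (adjusted p = 3.83e-05) and -0.62 ± 0.11 with siRNA2 (adjusted p = 0.00276), and the difference between the siRNAs was -0.43 ± 0.11 (adjusted p = 0.0176). Both changes against control kept their call under all 22 alternatives, and the difference was lost without siRNA2 array 3, under median scaling and with the methods' t-test (adjusted p up to 0.0806). Creld2, an ER stress-induced protein that acts on disulfide bonds, is the other gene of this group whose brightest probe fell. Levels of Creld2 stood at 89.5, 103, 100.2 and 108% with control RNA, at 72.8, 84.0, 74.4 and 88.1% with siRNA1 and at 90.4, 103 and 111% with siRNA2. The arrays of siRNA1 lay below both other groups, which overlapped. Its log2 fold change was -0.33 ± 0.10 with siRNA1 (adjusted p = 0.0305), 0.015 ± 0.11 with siRNA2 (adjusted p = 0.953) and -0.34 ± 0.11 between the siRNAs (adjusted p = 0.0389). The siRNA1 call was lost without any 1 of control arrays 2, 3 and 4 or siRNA1 arrays 1 and 3 and under 3 other settings (adjusted p up to 0.121), and the difference between the siRNAs was lost without any 1 of control array 3, siRNA1 arrays 1 and 3 and siRNA2 arrays 2 and 3 and under 5 other settings (adjusted p up to 0.151).

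Hspa5, BiP itself and a widely used marker of the UPR, did not pass the test with either siRNA. With control RNA Hspa5 read 106, 96.3, 99.9 and 98.4%, with siRNA1 99.4, 91.7, 91.9 and 105% and with siRNA2 88.5, 85.1 and 79.3%. The siRNA1 arrays overlapped the control arrays, and the siRNA2 arrays lay below both groups. The fit gave a log2 fold change of -0.047 ± 0.077 with siRNA1 (adjusted p = 0.698) and -0.25 ± 0.083 with siRNA2 (adjusted p = 0.062, which became 0.0499 with the slide as a block). Hsp90b1, the ER form of Hsp90, likewise missed the threshold. Across arrays Hsp90b1 measured 97.2, 105, 102 and 95.4% in control, 86.3, 85.9, 92.5 and 88.5% in siRNA1 and 94.3, 96.8 and 88.2% in siRNA2 samples. Every siRNA1 array lay below the control arrays by a small margin, with a log2 fold change of -0.18 ± 0.071 (adjusted p = 0.0855, and 0.0489 with the slide as a block), and with siRNA2 it was -0.10 ± 0.077 (adjusted p = 0.421). The second Hsp90b1 probe spread more widely, from 71.3% to 135% over the control arrays alone, and was not called. Hyou1, a large Hsp70-like chaperone, Dnajb9 and Dnajc3, J-domain co-chaperones, and Manf, a secreted ER stress protein, had brightest-probe log2 fold changes between -0.03 and 0.25 and none passed. Of the 4 Dnajc3 probes, however, one fell with siRNA2 (log2 fold change -0.49 ± 0.11, adjusted p = 0.00928) and another rose with siRNA1 (0.42 ± 0.11, adjusted p = 0.0138), while the brightest gave 0.16 ± 0.092 and -0.011 ± 0.10.

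The lectin chaperones differed between the siRNAs. Canx encodes calnexin, the membrane-bound chaperone that holds glycoproteins by their sugar. Canx levels were 104, 112, 85.7 and 99.9% on the control arrays, 108, 102, 98.8 and 98.8% with siRNA1 and 51.0, 46.4 and 44.5% with siRNA2. The 3 siRNA2 arrays lay at about the same level, below all others, and the siRNA1 arrays lay within the control range. limma put the log2 fold change at -1.08 ± 0.10 with siRNA2 (adjusted p = 4.39e-05), 0.027 ± 0.094 with siRNA1 (adjusted p = 0.865) and 1.11 ± 0.10 between the siRNAs (adjusted p = 2.65e-05), and the siRNA2 calls held under all 22 alternatives. The other Canx probes gave -0.54 ± 0.11 (adjusted p = 0.0045) and -0.40 ± 0.24 (adjusted p = 0.311) with siRNA2, the same direction at a smaller size. Calr encodes calreticulin, the soluble counterpart of calnexin. The control arrays gave Calr levels of 90.1, 86.9, 111 and 115%, the siRNA1 arrays 78.0, 83.9, 87.0 and 99.2% and the siRNA2 arrays 109.6, 112 and 128%. With siRNA1 all arrays lay below the siRNA2 arrays, while the control arrays spread over both. Against control the log2 fold change was -0.21 ± 0.12 with siRNA1 (adjusted p = 0.224) and 0.21 ± 0.13 with siRNA2 (adjusted p = 0.298), neither of which passed, and the difference between the siRNAs was -0.42 ± 0.13 (adjusted p = 0.0331). That difference was lost without any 1 of siRNA1 arrays 1, 2 and 3 or siRNA2 arrays 2 and 3 and under 4 other settings (adjusted p up to 0.129), and the second Calr probe gave -0.31 ± 0.16 (adjusted p = 0.2).

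The enzymes of disulfide formation moved little. Pdia4, Pdia6 and P4hb are disulfide isomerases, and Ero1l (now Ero1a) is the oxidase that recharges them. None of their brightest probes was called in any comparison, the log2 fold changes lying between -0.06 and 0.15 for siRNA1 and between -0.17 and 0.13 for siRNA2. P4hb levels were 103, 90.5, 102 and 105% on the control arrays, 97.0, 102, 92.9 and 92.7% with siRNA1 and 90.8, 92.0 and 92.9% with siRNA2. A dimmer Pdia6 probe was called higher with siRNA1 (0.21 ± 0.068, adjusted p = 0.0418) and higher with siRNA1 than with siRNA2 (0.34 ± 0.074, adjusted p = 0.00648), a change of 1.16-fold against control. The siRNA1 call of that probe held under 9 of the 22 alternatives, and the brightest Pdia6 probe gave 0.15 ± 0.088 (adjusted p = 0.248).

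**Figure D2:**
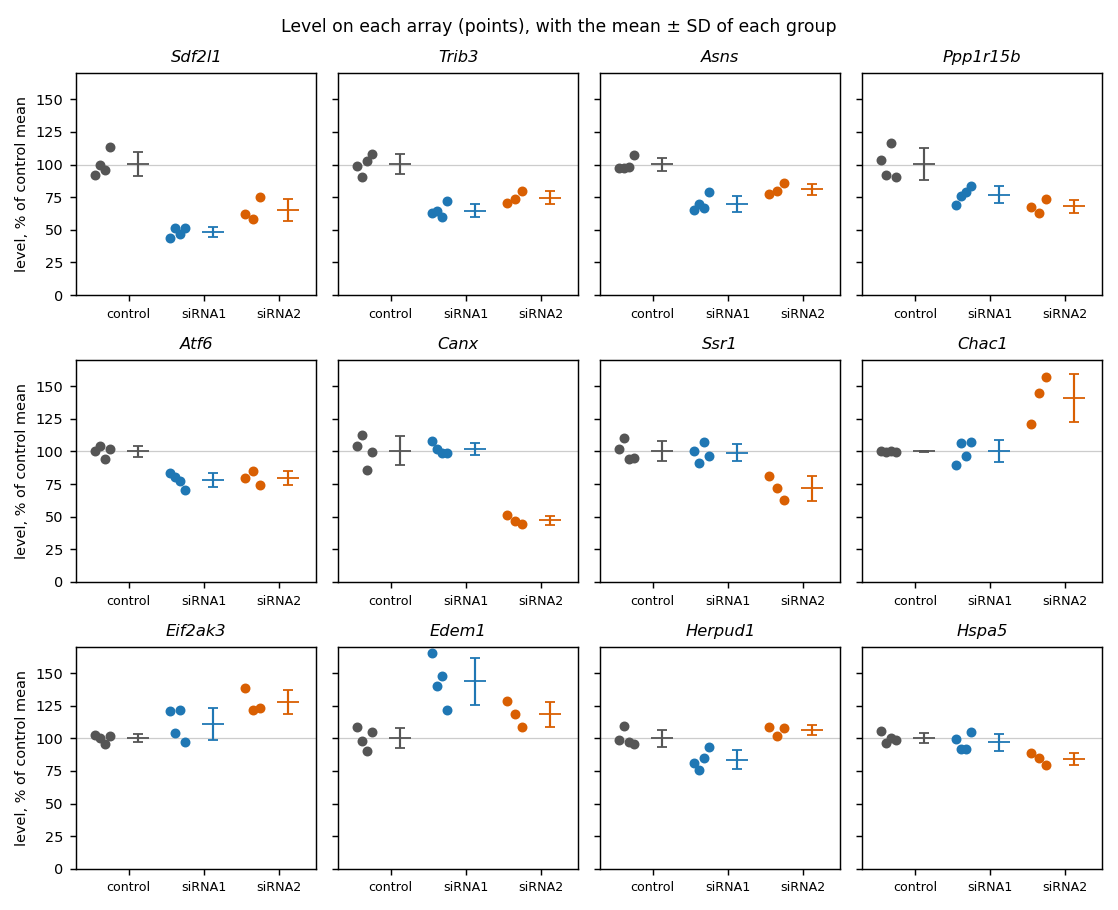
Level of 12 genes on each array (points, brightest probe, percent of the control group's geometric mean), with the mean ± SD of each group beside them; the groups are control (4 arrays), siRNA1 (4) and siRNA2 (3). The control and siRNA arrays do not overlap for Sdf2l1, Trib3, Asns, Ppp1r15b and Atf6, where the siRNA arrays are lower, nor for Edem1, where they are higher. For Canx, Ssr1, Chac1, Eif2ak3 and Hspa5 only the siRNA2 arrays stand apart, and for Herpud1 only the siRNA1 arrays.

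Of 15 probes for genes of ER-associated degradation, 1 was higher and 2 were lower with siRNA1, against 11.8% and 15.2% of all tested probes. None of the 15 was called with siRNA2, against 18.4% of all (limma gave 0 and the methods' t-test 2 at an unadjusted p of 0.05 or less). Edem1 encodes a lectin that hands misfolded glycoproteins to degradation. Levels of Edem1 stood at 108, 97.7, 90.3 and 104% with control RNA, at 165, 139.9, 148 and 122% with siRNA1 and at 128, 118 and 109% with siRNA2. All siRNA1 arrays lay above the highest control array, and so did the siRNA2 arrays, the lowest of them narrowly. This came to a log2 fold change of 0.52 ± 0.11 with siRNA1 (adjusted p = 0.00447, called under all 22 alternatives) and 0.24 ± 0.11 with siRNA2 (adjusted p = 0.183). With siRNA1 the other Edem1 probes gave 0.23 ± 0.081 (adjusted p = 0.0602) and 0.60 ± 0.22 (adjusted p = 0.0626). Herpud1, an ER membrane protein induced by stress that helps to assemble the degradation complex, moved the other way. With control RNA Herpud1 read 98.6, 109.7, 97.0 and 95.3%, with siRNA1 81.2, 75.7, 84.8 and 93.1% and with siRNA2 108, 102 and 108%. The arrays of siRNA1 lay below both other groups. Its log2 fold change was -0.26 ± 0.085 with siRNA1 (adjusted p = 0.0419), 0.085 ± 0.092 with siRNA2 (adjusted p = 0.615) and -0.35 ± 0.092 between the siRNAs (adjusted p = 0.0185). The siRNA1 call held under only 6 of the 22 alternatives and was lost when any 1 array other than siRNA1 array 4 was left out (adjusted p up to 0.251). The difference between the siRNAs held under 19 of the 22 and was lost without siRNA2 array 1 or 3 and under median scaling.

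Selk (now Selenok), a selenoprotein of the ER membrane linked to degradation, was called only between the siRNAs. Across arrays Selk measured 106, 103, 87.7 and 104% in control, 92.0, 94.3, 80.1 and 87.8% in siRNA1 and 107, 105 and 114% in siRNA2 samples. Every siRNA1 array lay below the siRNA2 arrays, and control array 3 lay apart from the other control arrays. The difference was -0.30 ± 0.095 (adjusted p = 0.0428) and held under 8 of 22 alternatives, being lost without any 1 array other than control array 3 and siRNA1 array 2. Of the others, Sel1l, the partner of the ubiquitin ligase Syvn1, had 2 probes that pointed in opposite directions with siRNA1, 0.31 ± 0.16 at the brighter one (adjusted p = 0.183) and -0.35 ± 0.10 at the dimmer one (adjusted p = 0.0232, called under 17 of 22 alternatives), so that no direction can be given for the gene. Syvn1, Derl1 and Derl2, the ligase and a pair of channel proteins, had brightest-probe log2 fold changes from -0.08 to 0.23, and none passed. A dim second Syvn1 probe read 328% on control array 1 against 57.9% to 78.2% on the other control arrays and was not called.

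The sensors of the UPR moved separately. Atf6, the membrane-bound transcription factor that is released by cleavage, fell with both siRNAs. Atf6 levels were 100.3, 104, 93.9 and 102% on the control arrays, 83.8, 80.6, 77.4 and 70.7% with siRNA1 and 79.7, 84.9 and 74.6% with siRNA2. All siRNA arrays lay below the control arrays, and those of siRNA1 and siRNA2 overlapped. Expressed as log2 fold change it was -0.36 ± 0.081 with siRNA1 (adjusted p = 0.00723, called under all 22 alternatives) and -0.33 ± 0.087 with siRNA2 (adjusted p = 0.0231), the latter lost without any 1 of control arrays 1, 2 and 4 or siRNA2 arrays 1 and 3 and under 3 other settings (adjusted p up to 0.0891). The second Atf6 probe gave -0.036 ± 0.091 (adjusted p = 0.809) and -0.17 ± 0.10 (adjusted p = 0.292), and was not called. Eif2ak3, the kinase PERK that slows translation, rose with siRNA2. The control arrays gave Eif2ak3 levels of 102, 100.5, 95.9 and 102%, the siRNA1 arrays 121, 104, 121 and 97.1% and the siRNA2 arrays 139, 122 and 123%. The siRNA2 arrays lay above both other groups, and siRNA1 arrays 1 and 3 came close to the lowest of them. Its log2 fold change was 0.35 ± 0.10 with siRNA2 (adjusted p = 0.0303) and 0.14 ± 0.092 with siRNA1 (adjusted p = 0.286), and the difference between the siRNAs did not pass (-0.21 ± 0.10, adjusted p = 0.159). The siRNA2 call was lost without any 1 of the control or siRNA2 arrays, under median scaling and without the filter on dim probes (adjusted p up to 0.109).

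Eif2ak4, the kinase GCN2 that responds to uncharged tRNA, fell with siRNA1. Levels of Eif2ak4 stood at 97.4, 93.8, 97.2 and 113% with control RNA, at 78.7, 77.4, 83.5 and 78.8% with siRNA1 and at 98.0, 92.2 and 92.5% with siRNA2. With siRNA1 all arrays lay below both other groups. In log2 fold change this was -0.33 ± 0.078 with siRNA1 (adjusted p = 0.0093; lost under median scaling only, at 0.0955) and -0.086 ± 0.084 with siRNA2 (adjusted p = 0.569), whereas a second, much dimmer probe gave 0.016 ± 0.13 with siRNA1 (adjusted p = 0.946). Xbp1, whose mRNA is spliced by IRE1 to make an active factor, was called only between the siRNAs, and whether its probe separates the spliced form is not known here. With control RNA Xbp1 read 104, 95.2, 103 and 98.1%, with siRNA1 119, 115, 119 and 104% and with siRNA2 98.1, 97.6 and 90.2%. The arrays of siRNA1 lay just above the control arrays and clear of the siRNA2 arrays, with a difference between the siRNAs of 0.26 ± 0.081 (adjusted p = 0.039). Against control it was 0.19 ± 0.075 with siRNA1 (adjusted p = 0.086) and -0.07 ± 0.081 with siRNA2 (adjusted p = 0.644). The difference held under 9 of 22 alternatives and was lost without any 1 array other than control array 2 and siRNA1 array 4. Ern1, the sensor IRE1 itself, gave 0.033 ± 0.13 with siRNA1 and 0.28 ± 0.14 with siRNA2 and was not called.

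In the ATF4 arm, 4 of 9 probes fell with siRNA1, where 15.2% of all tested probes did. The 9 probes belong to 8 genes, and both probes of Trib3 are among those 4. With siRNA2, 3 probes fell and 1 rose, against 10.7% and 7.70% of all. Trib3 encodes a pseudokinase induced by ATF4 and CHOP. Across arrays Trib3 measured 98.9, 90.5, 103 and 108% in control, 63.0, 64.3, 59.9 and 71.8% in siRNA1 and 70.3, 73.7 and 79.8% in siRNA2 samples. All siRNA arrays lay below the control arrays. The fit gave a log2 fold change of -0.63 ± 0.088 with siRNA1 (adjusted p = 0.000397) and -0.42 ± 0.10 with siRNA2 (adjusted p = 0.00983), and both calls held under all 22 alternatives. The second Trib3 probe gave -0.82 ± 0.13 (adjusted p = 0.00104) and -0.40 ± 0.14 (adjusted p = 0.0765). Asns, asparagine synthetase and a classic ATF4 target in amino acid shortage, carries the ATF4 element shown above. Asns levels were 97.6, 97.3, 98.3 and 107% on the control arrays, 65.2, 69.8, 66.5 and 78.6% with siRNA1 and 77.8, 79.5 and 85.9% with siRNA2. All siRNA arrays lay below the control arrays, of which control array 4 was the highest. Its log2 fold change was -0.52 ± 0.083 with siRNA1 (adjusted p = 0.000937, called under all 22 alternatives) and -0.30 ± 0.089 with siRNA2 (adjusted p = 0.0358). The siRNA2 call was lost when any 1 control array, siRNA1 array 2 or siRNA2 array 1 or 2 was left out. It was also lost under median scaling, without the filter on dim probes and in separate fits (adjusted p up to 0.155), and held under 12 of the 22 alternatives.

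Ppp1r15b, the constitutive subunit that directs the phosphatase to eIF2α and so undoes the translational block, also fell with both siRNAs. The control arrays gave Ppp1r15b levels of 103, 92.1, 117 and 90.3%, the siRNA1 arrays 68.8, 75.9, 79.3 and 83.9% and the siRNA2 arrays 67.3, 63.0 and 73.3%. All siRNA arrays lay below the control arrays. limma put the log2 fold change at -0.38 ± 0.10 with siRNA1 (adjusted p = 0.0188) and -0.56 ± 0.11 with siRNA2 (adjusted p = 0.0051), and the former was lost without control array 3 or siRNA1 array 1 and under median scaling and normexp (adjusted p up to 0.0789). Chac1, an enzyme that degrades glutathione and another gene with an ATF4 element in its promoter, rose with siRNA2. Levels of Chac1 stood at 100.5, 99.7, 100.3 and 99.6% with control RNA, at 89.9, 107, 96.9 and 107% with siRNA1 and at 121, 145 and 157% with siRNA2. The 3 siRNA2 arrays lay above all others, and the siRNA1 arrays spread around the control arrays. This came to a log2 fold change of 0.49 ± 0.10 with siRNA2 (adjusted p = 0.00723, called under all 22 alternatives), -0.0011 ± 0.10 with siRNA1 (adjusted p = 0.995) and -0.49 ± 0.10 between the siRNAs (adjusted p = 0.00559; 0.0531 with the methods' t-test). Trib3, Asns and Chac1, all known ATF4 targets, thus did not share a direction with siRNA2.

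The transcription factors of this arm and its stress-induced phosphatase subunit did not pass the test. Atf4 itself is regulated mainly by translation of its mRNA. With control RNA Atf4 read 93.1, 93.3, 104 and 111%, with siRNA1 75.6, 83.3, 87.1 and 96.0% and with siRNA2 86.7, 82.9 and 96.4%. The groups overlapped, and the log2 fold change was -0.23 ± 0.10 with siRNA1 (adjusted p = 0.109, and 0.0151 with the slide as a block) and -0.18 ± 0.11 with siRNA2 (adjusted p = 0.31). Ddit3 encodes CHOP, the factor linked to death under lasting stress. Across arrays Ddit3 measured 92.7, 91.0, 105 and 113% in control, 74.8, 102, 85.8 and 105% in siRNA1 and 88.8, 98.2 and 118% in siRNA2 samples. Its groups overlapped, at -0.14 ± 0.13 (adjusted p = 0.49) and 0.013 ± 0.14 (adjusted p = 0.97). Atf3 is an early stress-induced repressor. Atf3 levels were 108, 85.9, 104 and 104% on the control arrays, 101, 108, 104 and 112% with siRNA1 and 84.0, 90.8 and 109% with siRNA2. It gave 0.082 ± 0.10 (adjusted p = 0.606) and -0.088 ± 0.11 (adjusted p = 0.681). Ppp1r15a, GADD34, the inducible counterpart of Ppp1r15b, gave 0.089 ± 0.11 and 0.20 ± 0.12.

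At the translocon, the channel through which new proteins enter the ER, Ssr1 fell with siRNA2. Ssr1 encodes a subunit of the translocon-associated protein complex. The control arrays gave Ssr1 levels of 102, 110.4, 94.3 and 94.6%, the siRNA1 arrays 100.3, 91.4, 107 and 96.8% and the siRNA2 arrays 81.3, 71.6 and 62.5%. The siRNA2 arrays lay below all others. Expressed as log2 fold change it was -0.49 ± 0.11 with siRNA2 (adjusted p = 0.00866; 0.0561 with the methods' t-test), -0.018 ± 0.10 with siRNA1 (adjusted p = 0.918) and 0.47 ± 0.11 between the siRNAs (adjusted p = 0.0084). The second Ssr1 probe gave -0.40 ± 0.14 (adjusted p = 0.0842) with siRNA2 and 0.50 ± 0.14 (adjusted p = 0.0272) between the siRNAs. Sec61b, a subunit of the channel itself, gave -0.16 ± 0.093 with siRNA1 and 0.13 ± 0.10 with siRNA2, and the difference between them was -0.29 ± 0.10 (adjusted p = 0.0591).

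**Figure D3:**
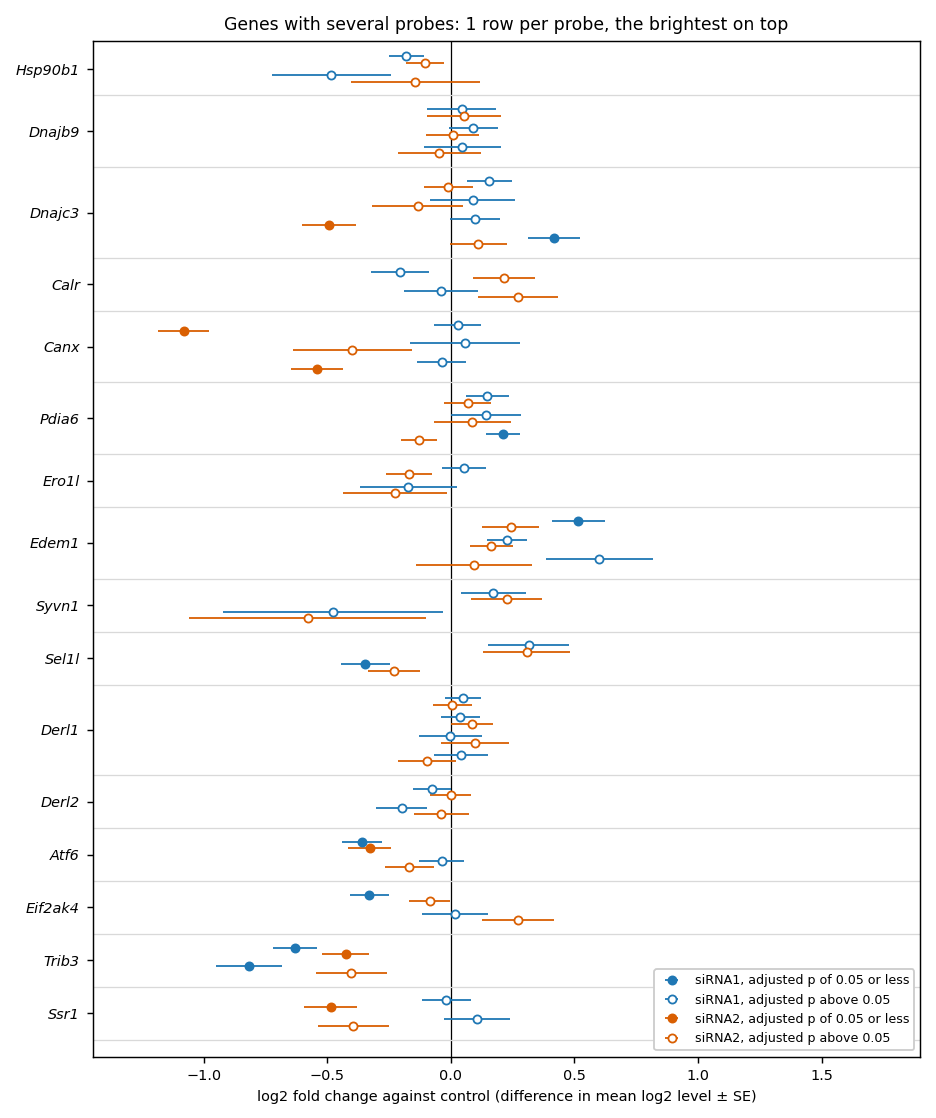
Log2 fold change with its standard error for every probe of the 16 genes with several probes, 1 row per probe with the brightest on top, for siRNA1 (blue) and siRNA2 (orange) against control; filled points have an adjusted p of 0.05 or less. The Canx, Trib3, Edem1 and Ssr1 probes keep to one side of 0 wherever one is filled, whereas the Sel1l probes and, with siRNA2, the Dnajc3 probes lie on opposite sides of it and the Atf6 probes differ in size.

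Genes with the same motif match did not all move alike. Of the 8 genes with an ERSE in the given promoter, Canx fell with siRNA2 and Creld2 with siRNA1, Calr was called only between the siRNAs, and the brightest probes of Hspa5, Hsp90b1, Dnajc3, Pdia6 and Syvn1 were called in none of the 3 comparisons. Of the 5 with an ATF4 element, Asns and Trib3 fell with both siRNAs, Herpud1 fell with siRNA1, Chac1 rose with siRNA2 and Atf3 was not called. The calls of these 5 genes with siRNA1 were thus all lower. Over all tested probes, 11.8% were higher and 15.2% lower with siRNA1, and 7.70% and 10.7% with siRNA2. Between the siRNAs, 23.5% of all tested probes were called.

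The arrays lay on 3 slides by their barcodes, and each slide held all 3 groups, with as few as 1 array of a group on a slide. All 13 probes called with siRNA1, all 11 called with siRNA2 and all 13 called between the siRNAs had the same direction on each of the 3 slides, and all remained called with the slide as a block. These probes were chosen by calls on the same arrays, so the shared direction is no separate support. The like share of all called probes was not counted. The fit with the slide as a block called more probes, 19, 14 and 21 of the 60, where it called 35.8%, 25.5% and 32.1% of all tested probes. Within the slides the siRNA1 difference of Sdf2l1 was -1.12, -0.98 and -1.13 (log2), that of Trib3 -0.59, -0.73 and -0.59 and that of Asns -0.58, -0.53 and -0.45. The siRNA2 difference of Canx was -1.08, -0.88 and -1.17, and that of Chac1 was 0.27, 0.53 and 0.66. Herpud1 with siRNA1 ran from -0.28 on slide 2 and -0.36 on slide 1 to -0.033 on slide 3, and Ppp1r15b from -0.59 on slide 2 to -0.10 on slide 3. Edem1 gave 0.68, 0.67 and 0.22, the smallest again on slide 3.

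**Figure D4:**
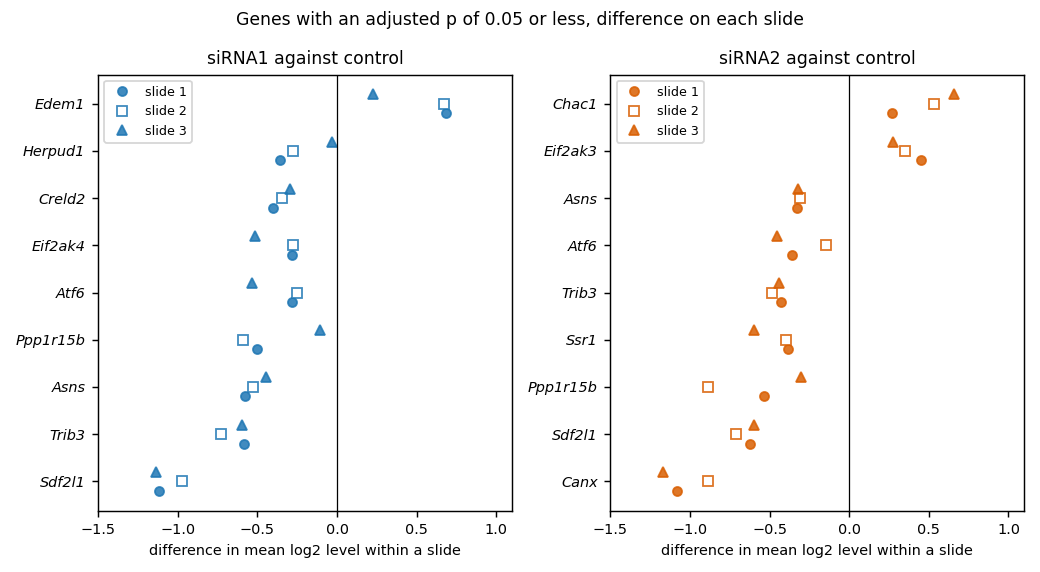
Difference in mean log2 level within each of the 3 slides, siRNA1 minus control (left) and siRNA2 minus control (right), for the genes whose brightest probe had an adjusted p of 0.05 or less; each symbol is a slide. All symbols of a gene lie on the same side of 0, and the symbols for slide 3 lie nearest to 0 for Herpud1, Ppp1r15b and Edem1 with siRNA1.

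Other genes of the same pathways were listed by function, also with earlier results of these data known. The share of all tested probes that was called was 27.0% with siRNA1 (11.8% higher, 15.2% lower) and 18.4% with siRNA2 (7.70% higher, 10.7% lower). Of 75 probes for further ER folding and translocation genes, 8 were higher and 15 lower with siRNA1 (30.7% called; medians -0.08 over the list and -0.048 over all probes), and 5 were higher and 5 lower with siRNA2 (13.3%; medians 0.0078 and -0.0082), where 3 probes were called higher and 0 lower with both. In that list Mogs, a glucosidase that trims the sugar before calnexin binds, rose by 0.57 on the log2 scale with both siRNAs. Uggt1, the enzyme that returns glycoproteins to the calnexin cycle, rose by 0.48 with siRNA1 and fell by 0.60 with siRNA2, and Pdia5, a disulfide isomerase, fell by 0.38 with siRNA1 and rose by 0.44 with siRNA2. Of 37 probes for further degradation genes, 4 were higher and 3 lower with siRNA1, and 2 and 4 with siRNA2 (18.9% and 16.2% called, below the shares of all probes; medians -0.052 and -0.036), and Faf2, a membrane anchor of the extraction machinery, fell by 0.49 and 0.71. Of 46 probes for further sensors and integrated stress response genes, 0 were higher and 14 lower with siRNA1 (30.4% lower against 15.2% of all, median -0.14 against -0.048), and 3 were higher and 3 lower with siRNA2 (13.0% called, median -0.05). Unadjusted, limma had 2 of those probes higher and 16 lower with siRNA1, and the methods' t-test 1 and 16. Psat1, an enzyme of serine synthesis and an ATF4 target, was the only gene of that list whose brightest probe was called with both siRNAs, and fell by 0.65 and 0.93. Of 31 probes for cytosolic heat shock genes, 1 was higher and 3 lower with siRNA1, and 0 and 4 with siRNA2 (2 and 7 unadjusted, 1 and 9 by the methods' t-test), with 12.9% called by each siRNA, below the shares of all probes, and medians of -0.014 and -0.033.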

How the data were processed

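RNA of 11 samples of MLTC-1 cells was hybridized to Agilent 1-color arrays, and the authors deposited each array as scanner output of Agilent Feature Extraction 9.5.1.1 (version per the file headers). The deposited values are fluorescence intensities on a linear scale, of which gProcessedSignal is already background-subtracted. Flags per the file headers marked spots well above background and outliers. A deposited table of the whole series holds group averages and selections from the authors' own comparisons and was not used. Genes were named through the RefSeq accession of each probe (assembly GRCm38.p6; 24375 of 41174 probes matched), and since the array annotation is older no gene position is given apart from the promoters, which come from RefSeq.

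Signals were divided by the 75th percentile of the non-control spots of each array and taken to log2, outlier spots (45 to 96 an array) were dropped, and spots of a probe were averaged. A probe was tested if at least 1 group had it well above background throughout (24250 probes). limma 3.58.1 in R 4.3.3 was fitted to all 11 arrays in 3 groups, with Benjamini-Hochberg adjustment over all tested probes, and an adjusted p of 0.05 or less counted as called. The script was tested on simulated data. Groups came from the sample labels. The genes and lists were chosen with earlier results of these data known. Named genes were those whose brightest probe was called in any of the 3 comparisons, plus Hspa5, Hsp90b1, Herpud1, Xbp1, Atf4, Ddit3, Atf3, Trib3 and Asns, and from each further list at most 5 genes called with both siRNAs. Probes outside this rule were named after their values were seen. Deviations from the group means correlated between arrays of 1 slide at -0.071 to 0.53 (median r = 0.30, 13 pairs) and between arrays of other slides at -0.46 to 0.29 (median r = -0.13, 27 pairs).

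Alternatives were quantile normalization, median scaling, normexp background correction (offset 50), no or a stricter filter, outlier spots kept, slide or replicate number as a block, separate fits, limma's trend and robust options, the methods' t-test, a further 2-fold threshold, each array left out in turn and the other probes of a gene. Counts of alternatives in the text are over 22 of these, all fits with an adjusted p. The number of arrays limits the precision.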

Additional observations from a re-analysis of the deposited data

Results flagged for a closer look

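For 9 genes the brightest probe differed between the siRNAs by the direct test (siRNA1 minus siRNA2, log2), 9 of the 36 genes measured, where 23.5% of all tested probes did. The difference was 1.11 for Canx, 0.47 for Ssr1 and 0.26 for Xbp1, and it was -0.49 for Chac1, -0.43 for Sdf2l1, -0.42 for Calr, -0.35 for Herpud1, -0.34 for Creld2 and -0.30 for Selk. In Sdf2l1 both siRNAs lay on the same side of control, in Canx, Ssr1 and Chac1 the siRNA1 value was near 0, and in Calr, Selk and Xbp1 neither siRNA was called against control.

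Of 72 groups of 4 arrays checked for an array that lies far from the others, 4 had one by Dixon's test, about as many as the 1 in 20 that chance gives. For Dnajb9, control array 1 read 124% of the control mean against 93.0% to 93.4% on the other control arrays. For Asns, control array 4 read 107% against 97.3% to 98.3%. For Selk, control array 3 read 87.7% against 103% to 106%. For Ppp1r15a, siRNA1 array 1 read 89.3% against 111% to 114% on the other siRNA1 arrays.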

How the results depend on the processing

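Of the 27 calls of named genes, 12 held under all 22 alternatives and 15 were lost under at least 1, of which 12 were lost when 1 array was left out. No call changed sign except at the second Eif2ak4 probe, which gave 0.016 with siRNA1 (adjusted p = 0.946). Under median scaling the called probes fell from 13 to 8 with siRNA1 and from 13 to 7 between the siRNAs. The shares of all tested probes fell from 27.0% to 21.2% and from 23.5% to 18.5%. Asking also for a 2-fold change left 1 probe in each of the 3 comparisons. The methods' t-test at an unadjusted 0.05 called 18 probes with siRNA2 and 20 between the siRNAs, against 27.6% and 31.4% of all tested probes. After Benjamini-Hochberg adjustment it called 8 between them, against 16.6% of all. Between the siRNAs, the fit without a filter on dim probes called 8 and the slide as a block 21, against 10.5% and 32.1% of all probes in those fits. Leaving out 1 array gave 9 to 13 calls with siRNA1, 8 to 11 with siRNA2 and 6 to 15 between the siRNAs. The last fell to 8 without siRNA1 array 1 or 3 or siRNA2 array 2 and to 6 without siRNA2 array 3. Over all tested probes the shares ran from 20.4% to 27.1%, from 12.2% to 18.1% and from 17.3% to 23.1% in the same order of comparisons. The cause of these changes was not tested. Without the filter the median log2 fold change of all probes became -0.13 with siRNA1 and -0.11 between the siRNAs.

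Arrays of the same replicate number correlated in their deviations at -0.18 to 0.53 (10 pairs, median 0.30, against -0.10 for 30 pairs of other numbers). Of the 10, 6 shared a slide too (median 0.47), and the 4 that did not had a median of 0.15. The labels give no pairing and not every pair correlated, so the numbers were not taken to pair the arrays. With the replicate number as a replicate block, 17 probes were called with siRNA1, 15 with siRNA2 and 21 between the siRNAs. That fit called 34.6%, 24.1% and 30.9% of all tested probes in the same order.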
